A study of Mus musculus with 2 samples.

Results

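Genes for the synthesis, turnover and binding of hyaluronan were followed in fibro-adipogenic progenitors (FAPs), the interstitial mesenchymal cells of skeletal muscle. The set was chosen by name and holds 9 of the 31053 genes counted: the synthases *Has1*, *Has2* and *Has3*, the hyaluronidases *Hyal1* and *Hyal2*, the receptor *Cd44*, and the matrix genes *Vcan*, *Tnfaip6* and *Hapln1*. FAPs had been sorted from limb muscle of 3-week-old C57BL/6 mice as live cells that lacked lineage markers and Vcam1 and carried Sca1, and a single droplet scRNA-Seq library was made for each of the 2 genotypes. Both libraries came from mice with a loxP-flanked *Bap1* gene on both alleles (Bap1f/f). One library was from mice without Cre (Bap1WT) and the other from Prx1-Cre;Bap1f/f mice (Bap1ΔMPC), in which Cre is made in limb mesenchymal progenitors, so that every mesenchymal descendant in the limb can carry the deletion and not FAPs alone. How many animals each library pooled is not given in the sources used here. With 1 library per genotype, differences between the libraries have no replicate check and no p-value, and all intervals are exact 95% intervals for counting error only.

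Hyaluronan is a long unbranched sugar of the matrix, made at the cell surface from UDP-glucuronic acid and UDP-N-acetylglucosamine by the membrane enzymes Has1, Has2 and Has3. Hyal2 at the surface and Hyal1 in lysosomes cut it, Cd44 binds it on cells, and outside cells it is held by the proteoglycan versican (*Vcan*), the link protein Hapln1 and Tsg-6 (*Tnfaip6*). Tsg-6 moves the heavy chains of inter-alpha-inhibitor onto hyaluronan, and pentraxin 3 (*Ptx3*) binds those chains in the crosslinked matrix. In muscle and fascia hyaluronan fills and lubricates the spaces between sheets of connective tissue.

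The 3 members with the highest levels were *Tnfaip6*, *Has1* and *Vcan*. Their promoters are shown because the first pair followed one another from cell to cell more closely than *Vcan* followed either, as described further down. RefSeq (GRCm38.p6) had promoters for 7 of the 9 members, and not for *Has2* and *Has3*. The sequence printed ends before the first base that either RefSeq or GENCODE counts as transcribed and begins 250 bases before the RefSeq start. Capitals mark matches, on either strand, to any of 7 motifs: the TATA box (TATAAA), the CCAAT box (CCAAT), the AP-1 site (TGANTCA), the cAMP response element (TGACGTCA), the GC box (GGGCGG), an E-box (CACGTG) and the NF-kappaB motif. No match overlaps another in the windows shown.
Has1, chr17:17855206-17855438, minus strand: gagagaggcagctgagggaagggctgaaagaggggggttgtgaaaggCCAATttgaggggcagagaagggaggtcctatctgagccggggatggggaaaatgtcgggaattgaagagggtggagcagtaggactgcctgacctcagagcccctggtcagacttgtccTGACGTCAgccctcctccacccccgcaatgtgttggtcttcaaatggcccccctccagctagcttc
Tnfaip6, chr2:52037863-52038008, plus strand: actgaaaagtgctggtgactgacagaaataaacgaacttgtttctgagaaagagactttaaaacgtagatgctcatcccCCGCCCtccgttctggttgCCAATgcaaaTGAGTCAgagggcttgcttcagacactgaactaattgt
Vcan, chr13:89742513-89742762, minus strand: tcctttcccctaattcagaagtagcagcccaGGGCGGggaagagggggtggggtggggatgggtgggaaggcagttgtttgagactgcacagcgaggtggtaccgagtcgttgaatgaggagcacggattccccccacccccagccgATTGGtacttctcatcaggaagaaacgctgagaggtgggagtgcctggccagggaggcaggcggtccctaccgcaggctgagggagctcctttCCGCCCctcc

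The *Has1* window of 233 bases held 1 CCAAT and 1 TGACGTCA, the latter found in 1.32% of 32851 promoters in a window of the same place and length. The *Tnfaip6* window of 146 bases held 1 CCAAT, 1 GGGCGG and 1 TGANTCA, and TGANTCA was found in 3.86% of promoters in that window. The *Vcan* window of 250 bases held 1 CCAAT and 2 GGGCGG, which were found in 33.8% and 32.7% of promoters, and no match to the other 5 motifs. Matches of this kind are a description of the letters and not of a factor's binding.

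The library labelled Bap1WT held 4103 cells and 51015705 UMIs, and the library labelled Bap1ΔMPC held 4378 cells and 49540066 UMIs, with medians of 12232 and 11018 UMIs per cell. Cells were split by the summed UMIs of *Pi16*, *Sema3c*, *Anxa3* and *Efemp1*, and those with 25 or more per 10000 UMIs were called Dpp4-type. They were 1050 cells (25.6%) and 1251 cells (28.6%) of the libraries, and 210 and 337 cells lay between 20 and 30. *Dpp4*, which the split did not use, was at 298 and 268 CPM (UMIs per 1000000 UMIs of the summed cells) in Dpp4-type cells against 56.5 and 39.5 CPM in the others, and 5 markers of the other known FAP type (*Cxcl14*, *Smoc2*, *Hsd11b1*, *Col15a1*, *Crispld2*) summed to 438 and 457 CPM against 2982 and 2919 CPM. Dpp4-type cells were deeper, with medians of 13635 and 11661 UMIs against 11829 and 10733. The libraries shared 5 cell barcodes. *Bap1* was at 17.6 CPM in the library labelled Bap1WT and 21.6 CPM in the library labelled Bap1ΔMPC. The reads come from 3′ ends and do not test a deletion inside the gene, so genotypes are given as labelled. *Ptprc*, *Adgre1*, *Cd3e*, *Pax7*, *Myf5* and *Myod1*, which mark immune and muscle stem cells, had no UMI in either library, while the other 2 genes of the immune list (*Cd68*, *Lyz2*) summed to 5.66 and 12.6 CPM and of the muscle stem list (*Vcam1*, *Des*) to 44.2 and 33.0 CPM in the libraries labelled Bap1WT and Bap1ΔMPC. Summed over 5 genes each, markers of tendon were at 69.6 and 110 CPM, of adipocytes at 0.412 and 8.26 CPM and of Schwann cells at 21.2 and 67.3 CPM, of which a single gene held 16.8 and 63.7 CPM.

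*Tnfaip6* and *Has1* had the highest levels of the 9 genes, *Vcan* and *Cd44* followed, and *Has3* and *Hapln1* were close to absent from the counts. Over all cells of the libraries labelled Bap1WT and Bap1ΔMPC, in that order here and below, *Tnfaip6* was at 539 and 495 CPM, *Has1* at 369 and 452 CPM, *Vcan* at 319 and 292 CPM and *Cd44* at 99.7 and 117 CPM. *Has2* was at 29.5 and 31.2 CPM, *Hyal2* at 10.5 and 7.89 CPM, and *Hyal1* at 6.27 and 3.65 CPM. The order of *Tnfaip6*, *Has1*, *Vcan*, *Cd44*, *Has2*, *Hyal2* and *Hyal1* was the same in both libraries, and no pair of neighbors in it had overlapping counting intervals. A UMI stands for 1 transcript counted at its 3′ end, so these levels do not scale with transcript length. *Hapln1* had 45 and 35 UMIs (0.882 and 0.707 CPM) and *Has3* had 11 and 24 UMIs (0.216 and 0.484 CPM). The other 7 members passed the limits for a ratio, which were 20 or more UMIs in the 2 sums compared and a mean log-normalized value over 0.01.

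**Figure D1:**
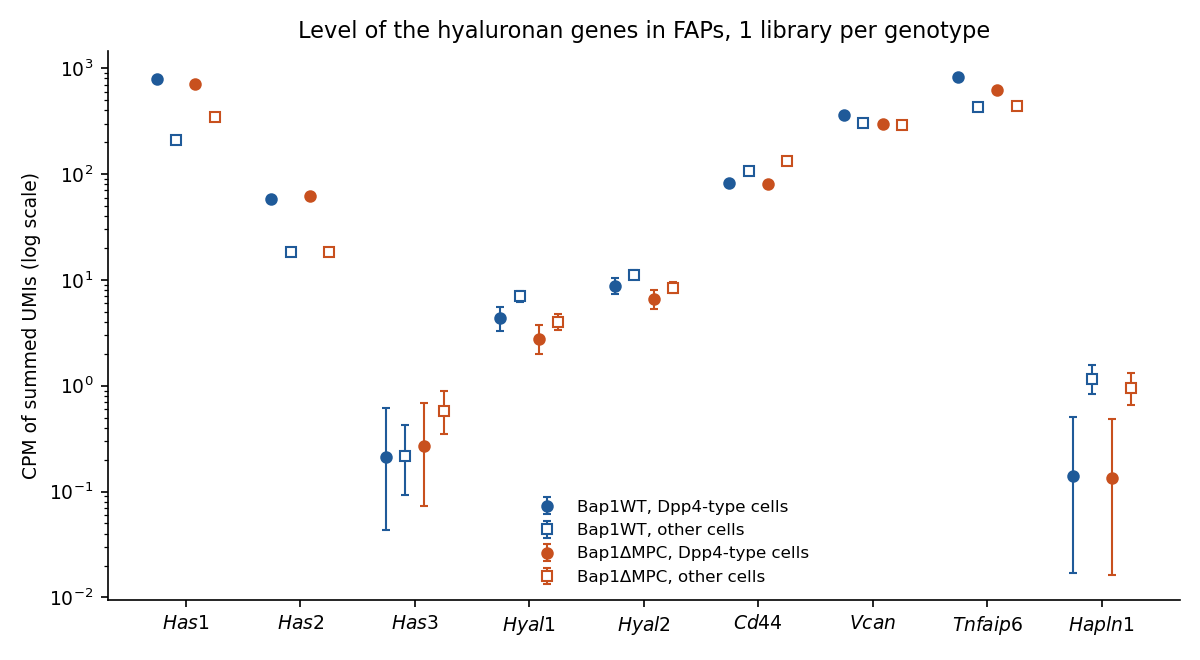
Level of each of the 9 genes as CPM of summed UMIs on a log axis, for Dpp4-type cells (filled circles) and other cells (open squares) of the library labelled Bap1WT (blue) and the library labelled Bap1ΔMPC (orange); bars are exact 95% Poisson intervals for counting error. *Has1* and *Has2* sit higher in the Dpp4-type cells of both libraries (787 against 209 CPM and 711 against 343 CPM for *Has1*), whereas *Has3* and *Hapln1* lie near or below 1 CPM.

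*Has1* was the main synthase transcript. It made up 92.5% (interval 92.2 to 92.9) and 93.5% (93.1 to 93.8) of the UMIs of the 3 synthase genes, and *Has2* made up 7.41% and 6.44%. *Has1* lies on chromosome 17 (17843323 to 17855205, minus strand), *Has2* on chromosome 15 (56665627 to 56694539, minus strand) and *Has3* on chromosome 8 (106870242 to 106884566, plus strand) in the GENCODE annotation of GRCm38. The antisense gene *Has2os* overlaps *Has2* on the opposite strand and is not among the genes counted. The counting strand is not stated in the sources used here, so whether its reads could enter the *Has2* counts was not settled. A *Has3* UMI was found in 0.268% and 0.548% of cells. Transcripts that FAPs should lack were found more often, the hemoglobin gene *Hbb-bs* in 6.17% and 8.34% of cells and the endothelial gene *Pecam1* in 2.29% and 3.88%. The *Has3* share was below both, so no expression was read from it, and free RNA cannot be told apart from low expression here.

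Both detected synthases were higher in Dpp4-type cells than in the other cells of the same library. *Has1* was at 787 CPM (interval 773 to 802) in Dpp4-type and 209 CPM (204 to 214) in other cells of the library labelled Bap1WT, and at 711 CPM (697 to 725) and 343 CPM (336 to 349) in the library labelled Bap1ΔMPC. The levels did not overlap in either library, and the ratio was 3.77 (interval 3.66 to 3.88) in the library labelled Bap1WT and 2.07 (2.02 to 2.13) in the library labelled Bap1ΔMPC. *Has2* was at 58.4 CPM (54.5 to 62.5) and 18.5 CPM (17.1 to 20.0) in the library labelled Bap1WT, and at 61.9 CPM (57.9 to 66.0) and 18.1 CPM (16.8 to 19.6) in the library labelled Bap1ΔMPC. Its ratios of 3.15 (2.85 to 3.50) and 3.41 (3.08 to 3.78) lay close to each other. *Has1* and *Has2* were the 2 of 7 members over 3-fold higher in Dpp4-type cells of the library labelled Bap1WT, where 2.38% of all genes compared were that much higher. *Has2* was the only one in the library labelled Bap1ΔMPC, where 1.85% of genes were. No member was over 3-fold lower, against 5.36% and 5.48% of genes. In the library labelled Bap1WT the log2 ratio of *Has2* was 1.66, and it was 1.57 with all cells thinned to 5000 UMIs and 1.18 with cells split by a *Dpp4* UMI, both under 3-fold. With the latter split *Has2* was under 3-fold in the library labelled Bap1ΔMPC as well, at 1.25.

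The difference held for the number of cells with a UMI. In cells thinned to 5000 UMIs, 62.5% of Dpp4-type and 28.5% of other cells of the library labelled Bap1WT had a *Has1* UMI, and 71.9% and 41.9% in the library labelled Bap1ΔMPC. Unthinned, these shares were 72.4%, 38.8%, 80.2% and 51.7%. For *Has2* the thinned shares were 19.0% and 7.21% in the library labelled Bap1WT and 21.6% and 6.51% in the library labelled Bap1ΔMPC, and unthinned they were 38.4%, 14.6%, 36.1% and 11.3%. *Has2* UMIs were found more often in cells with *Has1*: 15.7% of thinned cells with a *Has1* UMI had *Has2* against 6.99% without in the library labelled Bap1WT, and 15.8% against 5.82% in the library labelled Bap1ΔMPC. Both shares also carry the split by class described above.

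The level of *Has1* and *Has2* followed the score of the 4 genes across its range, and not as a step at the cut. From cells under 2 per 10000, through 2 to 10, 10 to 25 and 25 to 50, to cells at 50 or more, *Has1* was at 151, 187, 347, 647 and 870 CPM in the library labelled Bap1WT. In the library labelled Bap1ΔMPC it was at 299.6, 307, 505, 665 and 761 CPM, so that the ratio between the libraries was largest in the cells of lowest score. *Has2* was at 12.3, 17.4, 30.1, 49.7 and 63.5 CPM in the library labelled Bap1WT and at 11.9, 16.3, 35.2, 52.4 and 72.3 CPM in the library labelled Bap1ΔMPC, nearly the same course in both. Just outside the cut, at 20 to 25 per 10000, *Has1* was at 478 and 543 CPM, and just inside it, at 25 to 30, at 403 and 689 CPM. *Has2* was at 32.6 and 45.1 CPM just outside and 32.7 and 44.5 CPM just inside.

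**Figure D2:**
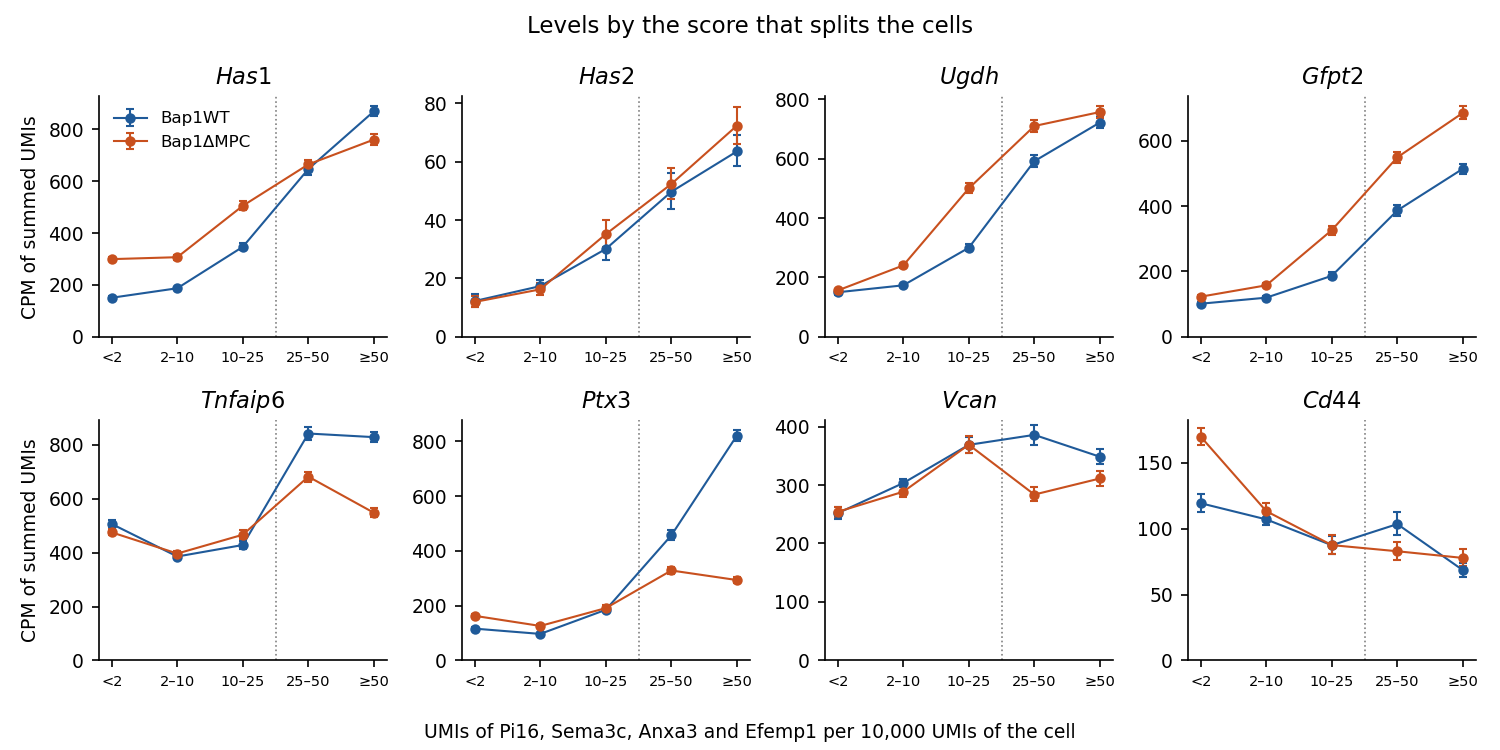
CPM of summed UMIs (vertical axes, from 0) of 8 genes in cells binned by the UMIs of *Pi16*, *Sema3c*, *Anxa3* and *Efemp1* per 10000 UMIs (horizontal axes); blue is the library labelled Bap1WT, orange the library labelled Bap1ΔMPC, bars are exact 95% Poisson intervals and the dotted line is the cut at 25. *Has1*, *Has2*, *Ugdh* and *Gfpt2* climb with the score in both libraries (*Has2* from 12.3 to 63.5 and from 11.9 to 72.3 CPM), *Tnfaip6* and *Ptx3* are high past the cut and higher there in the library labelled Bap1WT, and *Cd44* runs the other way.

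The enzymes that make the 2 sugar precursors stood higher in Dpp4-type cells together with the synthases. All 7 genes of this list (*Ugdh*, *Ugp2*, *Uap1*, *Gfpt1*, *Gfpt2*, *Gnpnat1*, *Pgm3*) could be compared, and their median log2 ratio of Dpp4-type over other cells was 1.18 in the library labelled Bap1WT and 1.06 in the library labelled Bap1ΔMPC, beside medians of -0.01 and -0.04 over all genes compared. Over 3-fold higher were 3 of 7 (*Ugdh*, *Gfpt2*, *Gnpnat1*) in the library labelled Bap1WT and 1 of 7 (*Gfpt2*) in the library labelled Bap1ΔMPC, where 2.38% and 1.85% of all genes compared were. At 2-fold they were 5 of 7, where 4.7% of genes were, and 4 of 7, where 3.99% were.

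*Ugdh* makes UDP-glucuronic acid and was the most abundant gene of the list. It was at 673 CPM in Dpp4-type and 192 CPM in other cells of the library labelled Bap1WT, a ratio of 3.51 (interval 3.40 to 3.62), and at 733 and 256 CPM in the library labelled Bap1ΔMPC, a ratio of 2.86 (2.78 to 2.94). *Gfpt2* catalyses the first and rate-limiting step of the hexosamine pathway. It was at 467 and 128 CPM in the library labelled Bap1WT, a ratio of 3.65 (3.51 to 3.79), and at 614 and 176 CPM in the library labelled Bap1ΔMPC, a ratio of 3.49 (3.38 to 3.61). Its paralog *Gfpt1*, which catalyses the same step, was at 64.0 and 60.7 CPM and at 68.9 and 60.0 CPM, with ratios of 1.05 (0.975 to 1.14) and 1.15 (1.07 to 1.24). The ratio of *Gfpt2* was thus the larger of the pair in both libraries. *Gnpnat1*, which acetylates glucosamine 6-phosphate, had ratios of 3.23 (3.01 to 3.47) and 2.71 (2.55 to 2.88).

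**Figure D3:**
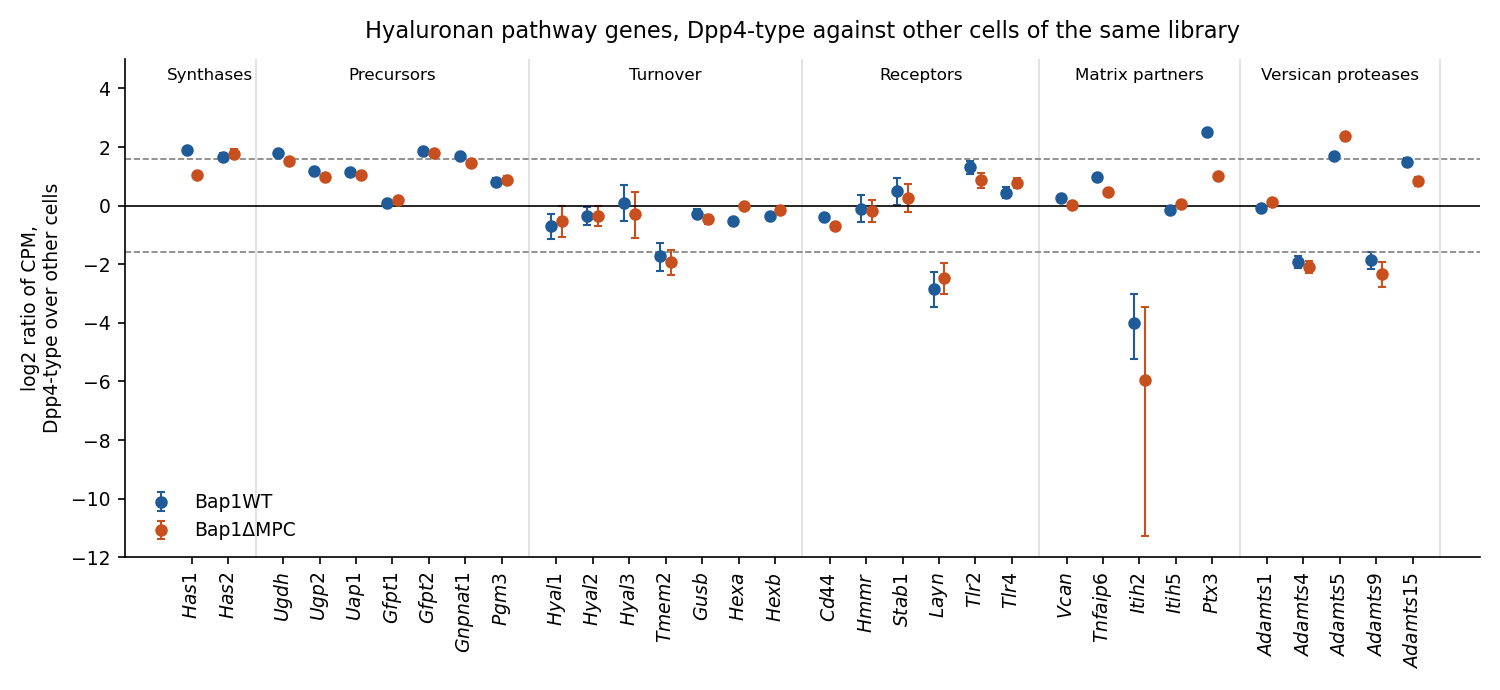
Log2 ratio of CPM, Dpp4-type over other cells of the same library, for the 7 members and 25 further hyaluronan genes that passed the limits, by role; blue is the library labelled Bap1WT, orange the library labelled Bap1ΔMPC, bars are exact 95% intervals for counting error and dashed lines mark 3-fold. Synthases and all precursor enzymes but *Gfpt1* lie near or above a log2 ratio of 1, whereas *Tmem2*, *Layn*, *Itih2*, *Adamts4* and *Adamts9* lie below the lower line in both libraries.

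Turnover genes did not share the direction of the synthases. *Hyal1* was at 4.32 and 7.02 CPM in Dpp4-type and other cells of the library labelled Bap1WT and at 2.78 and 4.03 CPM in the library labelled Bap1ΔMPC, ratios of 0.616 (interval 0.458 to 0.817) and 0.690 (0.475 to 0.983). *Hyal2* was at 8.78 and 11.2 CPM and at 6.57 and 8.45 CPM, ratios of 0.785 (0.637 to 0.962) and 0.777 (0.611 to 0.981). Both were thus somewhat lower in Dpp4-type cells of each library, by amounts whose intervals come close to 1. The genes lie beside each other on chromosome 9 (*Hyal2* at 107567945 to 107572779, *Hyal1* at 107576927 to 107581710, both on the plus strand). *Hyal1* overlaps *Hyal3* on the same strand, so its counts are uncertain where reads could belong to either. A *Hyal1* UMI was found in 7.36% and 4.02% of cells and a *Hyal2* UMI in 12.2% and 8.36%, beside 12.5% and 6.74% for the muscle fiber gene *Acta1* and 6.17% and 8.34% for *Hbb-bs*. The shares of *Hyal1* and *Hyal2* were thus of the size seen for *Acta1* and *Hbb-bs*, which FAPs should lack. *Pecam1* (2.29% and 3.88%) and the immune gene *Lyz2* (1.73% and 4.96%) were found less often than *Hyal2* in each library. *Lyz2* was found more often than *Hyal1* in the library labelled Bap1ΔMPC. Free RNA cannot be told apart from low expression for *Hyal1* and *Hyal2*.

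Of the other 10 turnover genes on the list, 5 could be compared and 1 was over 3-fold lower in each library, against 5.36% and 5.48% of all genes. *Tmem2*, a surface hyaluronidase, was at 2.98 and 9.86 CPM in Dpp4-type and other cells of the library labelled Bap1WT and at 3.66 and 13.8 CPM in the library labelled Bap1ΔMPC, ratios of 0.302 (0.214 to 0.416) and 0.264 (0.196 to 0.351). Over all cells *Tmem2* was at 7.96 and 10.8 CPM, near *Hyal2*, and a part of free RNA in its counts was not tested. The lysosomal enzyme *Hexa*, the most abundant of them, was at 159 and 189.9 CPM over all cells, with ratios of 0.688 (0.651 to 0.726) and 0.983 (0.940 to 1.03). *Hyal4*, *Hyal5*, *Hyal6* and *Spam1* had no UMI in the 4103 and 4378 cells of the libraries, which allows shares of up to 0.0731% and 0.0685% of cells with a UMI.

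*Cd44* was lower in Dpp4-type cells. It lies on chromosome 2 (102811141 to 102901665, minus strand) and was at 81.6 CPM (interval 77.0 to 86.5) in Dpp4-type and 107 CPM (103 to 110) in other cells of the library labelled Bap1WT, and at 80.5 CPM (76.0 to 85.2) and 132 CPM (128 to 136) in the library labelled Bap1ΔMPC. The ratios were 0.766 (0.717 to 0.818) and 0.611 (0.572 to 0.651), the opposite direction to *Has1* and *Has2*. By the score, *Cd44* was highest in cells under 2 per 10000 (119 and 170.0 CPM) and lowest in cells at 50 or more (68.6 and 77.9 CPM). A *Cd44* UMI was found in 56.1% and 52.2% of all cells. Among 7 other receptor genes, 5 could be compared. *Tlr4* was the most abundant (20.5 and 25.8 CPM over all cells), with ratios of 1.36 (1.19 to 1.54) and 1.70 (1.52 to 1.90). *Layn*, the membrane lectin layilin, was at 1.84 and 13.2 CPM and at 2.23 and 12.3 CPM, ratios of 0.140 (0.0904 to 0.207) and 0.181 (0.123 to 0.258), and was the only one of the 5 past 3-fold, beside the same shares of all genes. Over all cells *Layn* was at 10.0 and 9.33 CPM, also near *Hyal2*, and a part of free RNA in its counts was not tested.

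*Tnfaip6* was higher in Dpp4-type cells, less so than *Has1* and *Has2* in both libraries, and *Vcan* was nearly even. *Tnfaip6* lies on chromosome 2 (52038009 to 52056686, plus strand) and was at 833 CPM (interval 818 to 849) in Dpp4-type and 426 CPM (419 to 433) in other cells of the library labelled Bap1WT, and at 618 CPM (605 to 631) and 443 CPM (436 to 450) in the library labelled Bap1ΔMPC. The ratios were 1.96 (1.91 to 2.00) and 1.40 (1.36 to 1.43). Across the score bins, from lowest to highest, *Tnfaip6* did not climb steadily. It was at 506, 386, 428, 842 and 828 CPM in the library labelled Bap1WT. In the library labelled Bap1ΔMPC it was at 475, 396, 466, 682 and 548 CPM. *Vcan*, on chromosome 13 (89655312 to 89742509, minus strand), was at 362 and 303 CPM and at 297 and 290 CPM, ratios of 1.20 (1.16 to 1.24) and 1.02 (0.988 to 1.06). The neighboring *Hapln1* (89539796 to 89611652, plus strand) had 2 UMIs in Dpp4-type and 43 in other cells of the library labelled Bap1WT, and 2 and 33 in the library labelled Bap1ΔMPC, ratios of 0.122 (0.0143 to 0.467) and 0.143 (0.0166 to 0.558). It was thus rare in both classes, and did not pass the limits for the counts given above.

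Of 13 further matrix partners, 3 could be compared. *Itih5*, whose product is of the inter-alpha-inhibitor heavy chain family, was the most abundant hyaluronan gene measured, at 905 and 1086 CPM over all cells, and was even between the classes (ratios 0.897, interval 0.879 to 0.916, and 1.04, 1.02 to 1.06). *Itih2* was found almost only outside the Dpp4-type cells, with 8 against 335 UMIs in the library labelled Bap1WT (ratio 0.0624, interval 0.0267 to 0.124) and 1 against 146 UMIs in the library labelled Bap1ΔMPC (ratio 0.0161, 0.000406 to 0.0913). Over all cells *Itih2* was at 6.72 and 2.97 CPM, near *Hyal1*, and a part of free RNA in its counts was not tested. *Hbb-bs*, which FAPs should lack, had 79 against 1247 UMIs and 110 against 690 UMIs in the same classes, which hold unlike numbers of cells. A *Hbb-bs* UMI was found in 6.67% of Dpp4-type and 5.99% of other cells of the library labelled Bap1WT. In the library labelled Bap1ΔMPC these shares were 7.99% and 8.47%. *Ptx3* was at 685 and 119 CPM in the library labelled Bap1WT, a ratio of 5.75 (5.55 to 5.96), and at 312 and 154 CPM in the library labelled Bap1ΔMPC, a ratio of 2.03 (1.95 to 2.11).

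The proteases that cut versican divided between the classes. Of 6 genes, 5 could be compared, and in each library *Adamts5* was over 3-fold higher and *Adamts4* and *Adamts9* over 3-fold lower in Dpp4-type cells. Of all genes, 2.38% and 1.85% were that much higher and 5.36% and 5.48% that much lower. *Adamts5*, the most abundant, was at 928 and 284 CPM in the library labelled Bap1WT and at 1279.5 and 246 CPM in the library labelled Bap1ΔMPC, ratios of 3.27 (interval 3.18 to 3.35) and 5.20 (5.07 to 5.34). *Adamts4* had ratios of 0.266 (0.230 to 0.306) and 0.235 (0.206 to 0.269), and *Adamts9* ratios of 0.275 (0.224 to 0.335) and 0.198 (0.144 to 0.266). *Adamts1* was nearly even, at 0.942 (0.910 to 0.975) and 1.08 (1.04 to 1.12).

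*Has1* and *Tnfaip6* were unevenly spread over cells. In thinned cells the variance of *Has1* UMIs was 6.97 and 5.59 times their mean and that of *Tnfaip6* 6.28 and 5.91 times, against 1.91 and 2.67 for *Vcan*, 1.55 and 1.88 for *Cd44* and 1.54 and 1.68 for *Has2*, where independent counting gives 1. This ratio depends on the mean, which was 1.65 and 2.16 UMIs for *Has1* but 0.132 and 0.148 for *Has2*. It thus does not rank genes of unlike level by how uneven they are. The tenth of cells with the most *Has1* held 63.0% and 49.0% of its UMIs. For *Tnfaip6* it held 49.2% and 48.9%, and for *Vcan* 33.8% and 42.5%. For *Has2*, which had a UMI in only 20.7% and 18.4% of cells, it held 70.9% and 76.2%. Within Dpp4-type cells alone the variance of *Has1* was 6.18 and 4.61 times the mean, and within other cells 6.11 and 5.85 times. The highest single cell had 84 and 72 *Has1* UMIs.

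Across single cells the genes most like *Has1* were *Ugdh* (Pearson r of log-normalized values 0.45 and 0.38), *Tnfaip6* (0.44 and 0.36) and *Gfpt2* (0.43 and 0.36), taken over 4103 and 4378 cells. Members with 1000 or more UMIs in each library were set against all genes that passed the limits for a ratio over all cells. Those most like *Tnfaip6* were *Ptx3* (0.47 and 0.42), *Has1*, and the matrix gene *Dpt* (0.34 and 0.31). For *Has2*, *Cd44* and *Vcan* no gene reached 0.3 in both libraries. *Tnfaip6* and *Vcan* had r of 0.08 and 0.10, and *Has1* and *Vcan* had r of 0.14 and 0.17. These points share a library, differ in depth and pool the 2 classes, between which *Has1*, *Ugdh* and *Gfpt2* differ, so the values are a description. Within thinned Dpp4-type cells, 88.8% and 90.3% of cells with a *Has1* UMI had *Ugdh* against 76.9% and 83.1% without. Within other cells the shares were 55.7% and 60.1% against 39.8% and 44.9%. As shares of thinned cells, 74.7% and 69.0% of cells with a *Has1* UMI had *Tnfaip6* against 52.8% and 45.1% of cells without, and 34.1% and 34.5% of cells with a *Tnfaip6* UMI had *Ptx3* against 10.2% and 11.5% without. For *Vcan* the shares with and without *Tnfaip6* were 66.6% and 65.0% in the library labelled Bap1WT and 61.6% and 54.7% in the library labelled Bap1ΔMPC. With and without *Has1* the *Vcan* shares were 70.9% and 63.0% in the former library and 63.9% and 53.3% in the latter.

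*Has1* and *Tnfaip6* also moved with the immediate early genes, a set of 15 genes (*Fos*, *Jun*, *Egr1*, *Atf3* and others) that tissue dissociation is known to induce. In Dpp4-type cells of the library labelled Bap1WT, ordered by these genes into 3 groups of like size, *Tnfaip6* was at 261, 858 and 1340.2 CPM and *Has1* at 269, 989 and 1057 CPM from the lowest to the highest group. In the library labelled Bap1ΔMPC the values were 334, 597 and 937 CPM for *Tnfaip6* and 459, 780.3 and 897 CPM for *Has1*. In other cells *Tnfaip6* was at 184, 432 and 663 CPM and at 249.9, 473 and 629 CPM, the same order. *Has2* showed less of it, at 43.4, 63.0 and 67.5 CPM and at 57.3, 66.1 and 62.0 CPM in Dpp4-type cells. *Vcan* ran the other way, at 395, 369 and 325 CPM and at 339.6, 296 and 254 CPM. The rise was not particular to *Has1* and *Tnfaip6*. In Dpp4-type cells *Ptx3* was at 217, 885 and 911 CPM and at 169, 367 and 400.2 CPM. *Ugdh* was at 424, 724 and 853 CPM and at 592, 743 and 869 CPM there. In other cells *Ugdh* rose in the library labelled Bap1WT (125, 196 and 255 CPM) and not in the library labelled Bap1ΔMPC (247, 278 and 242 CPM). Whether dissociation had a part in these levels was not tested.

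**Figure D4:**
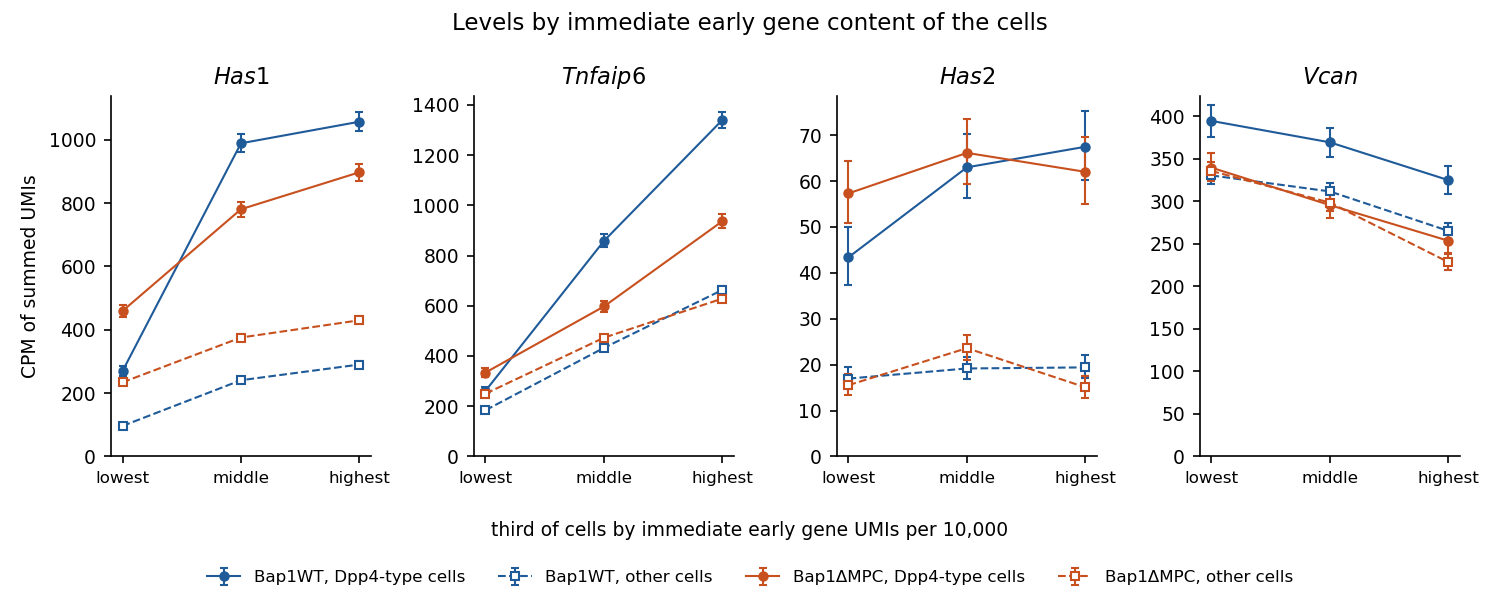
CPM of summed UMIs (vertical axes, from 0) of *Has1*, *Tnfaip6*, *Has2* and *Vcan* in 3 groups of cells of like size ordered by 15 immediate early genes, for Dpp4-type cells (filled, solid) and other cells (open, dashed) of the library labelled Bap1WT (blue) and the library labelled Bap1ΔMPC (orange); bars are exact 95% Poisson intervals. *Tnfaip6* climbs in both classes of both libraries (from 261 to 1340.2 CPM in the steepest), *Has2* is higher in each Dpp4-type group than in any group of other cells, and *Vcan* declines; the groups were formed within each class, so a group of one class does not have the immediate early level of its counterpart in the other.

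The summed level of the immediate early genes was lower in Dpp4-type cells, at 14590 against 19714 CPM in the library labelled Bap1WT and 14935 against 22676 CPM in the library labelled Bap1ΔMPC. Among cells below the median of immediate early genes, the log2 ratio of Dpp4-type over other cells was 2.49 and 1.28 for *Has1* and 1.63 and 1.93 for *Has2*.

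Between the libraries, none of the 7 members that passed the limits differed by 3-fold or 2-fold in all cells, in Dpp4-type cells or in other cells. *Has3*, which did not pass them, had 11 and 24 UMIs over all cells, a ratio of 2.25 with a wide interval (1.06 to 5.08). Over 3-fold in either direction were 2.56%, 2.69% and 3.07% of all genes in these comparisons, and over 2-fold 6.63%, 7.06% and 7.44%. As ratios of the library labelled Bap1ΔMPC over the library labelled Bap1WT, all cells gave 1.23 for *Has1* (interval 1.20 to 1.25), 1.06 for *Has2* (0.983 to 1.13), 1.17 for *Cd44* (1.13 to 1.21), 0.915 for *Vcan* (0.895 to 0.936), 0.919 for *Tnfaip6* (0.903 to 0.935), 0.750 for *Hyal2* (0.657 to 0.856) and 0.582 for *Hyal1* (0.483 to 0.701). The *Has2* interval includes 1, and the median log2 ratio of all genes was 0.10, close in size to the log2 ratios of *Vcan* and *Tnfaip6* (-0.13 and -0.12). *Hyal1*, the member with the lowest ratio, was lower in both Dpp4-type (0.642, 0.422 to 0.970) and other cells (0.574, 0.464 to 0.707). The summed level of 5 muscle fiber genes was 60.5 and 35.8 CPM over all cells and 67.0 and 32.3 CPM in other cells, lower in the library labelled Bap1ΔMPC as *Hyal1* was, and 43.6 and 44.1 CPM in Dpp4-type cells, where *Hyal1* was lower and the sum was not. Its part in the *Hyal1* value over all cells was not tested.

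The libraries differed by class for *Has1* and *Tnfaip6*. In other cells *Has1* was at 209 CPM in the library labelled Bap1WT and 343 CPM in the library labelled Bap1ΔMPC, a ratio of 1.64 (interval 1.59 to 1.69), whereas in Dpp4-type cells it was at 787 and 711 CPM, a ratio of 0.903 (0.879 to 0.928). *Tnfaip6* was at 833 and 618 CPM in Dpp4-type cells, a ratio of 0.741 (0.721 to 0.762), and at 426 and 443 CPM in other cells, a ratio of 1.04 (1.02 to 1.06) that turns to log2 values of -0.06 and -0.03 with TMM and median-of-ratios scaling. The *Has1* ratio in Dpp4-type cells, in turn, was above 1 (log2 of 0.27) with cells split by a *Dpp4* UMI. *Ptx3*, the gene most like *Tnfaip6*, was at 685 and 312 CPM in Dpp4-type cells, a ratio of 0.455 (0.439 to 0.471), and at 119 and 154 CPM in other cells, a ratio of 1.29 (1.24 to 1.34). *Has2* was the same within counting error in both classes, with ratios of 1.06 (0.964 to 1.17) and 0.980 (0.878 to 1.09). Since each class has 1 sum per library, the difference between classes was not tested. Beside these values, the summed immediate early genes were at 19714 and 22676 CPM in other cells and 14590 and 14935 CPM in Dpp4-type cells, and 10 inflammatory genes (*Il6*, *Ccl2*, *Cxcl1* and others) at 3072 and 3168 CPM in other cells and 2743 and 2195 CPM in Dpp4-type cells. Their part in the result was not tested.

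**Figure D5:**
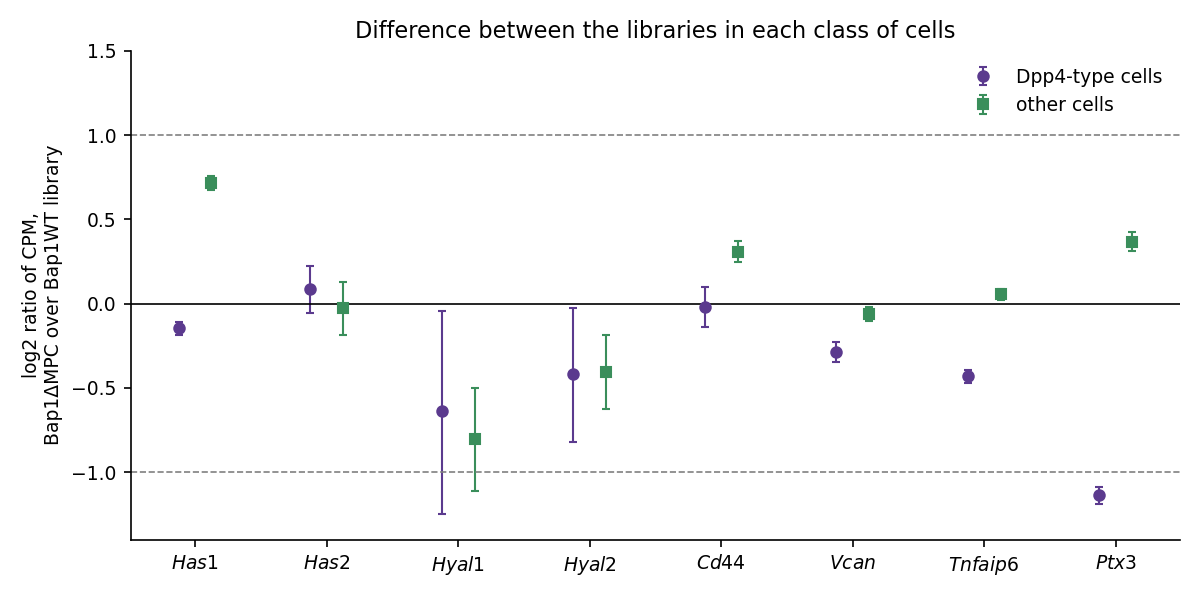
Log2 ratio of CPM, library labelled Bap1ΔMPC over library labelled Bap1WT, in Dpp4-type cells (purple circles) and other cells (green squares) for the 7 members that passed the limits and *Ptx3*; bars are exact 95% intervals for counting error and dashed lines mark 2-fold. *Has1*, *Tnfaip6* and *Ptx3* lie below 0 in Dpp4-type and above 0 in other cells (*Has1* at -0.15 and 0.71; *Tnfaip6* in other cells is below 0 under TMM and median-of-ratios scaling), and *Hyal1* and *Hyal2* below 0 in both.

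The precursor enzymes had a median log2 ratio between the libraries of 0.29 over all cells, beside 0.10 for all genes, and none was past 2-fold. *Gnpnat1* had the highest ratio (1.40, interval 1.34 to 1.47) and *Pgm3* the lowest (0.829, 0.775 to 0.886). Of the 25 genes compared beyond the members, 1 differed by over 2-fold over all cells: *Itih2*, at 6.72 CPM in the library labelled Bap1WT and 2.97 CPM in the library labelled Bap1ΔMPC, a ratio of 0.441 (0.361 to 0.537). In Dpp4-type cells 2 of 24 did, *Ptx3* and *Adamts9* (0.417, 0.291 to 0.591), and in other cells 1 of 25, *Itih2* (0.462, 0.378 to 0.563). These counts stand beside 6.63%, 7.06% and 7.44% of all genes, and such small counts are near those shares. In other cells the summed muscle fiber genes were at 67.0 and 32.3 CPM, lower in the library labelled Bap1ΔMPC as *Itih2* was. In Dpp4-type cells these genes were at 43.6 and 44.1 CPM, where *Itih2* had 8 and 1 UMIs. The part of the muscle fiber genes in the *Itih2* value was not tested.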

How the data were processed

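Counts were obtained from 2 droplet scRNA-Seq libraries of sorted FAPs. Per the labels and methods, the authors aligned reads to mm10 with Cell Ranger 3.1.0 and used Seurat 3.2.1 to remove poor cells, doublets and cells other than FAPs. The deposited tables hold whole, unnormalized UMI counts. The filter thresholds and the strand setting are not given in the sources used here. No further cell was removed and no doublet caller was run.

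For each library and class, UMIs were summed over cells and divided by their total (CPM). Ratios are of these CPM, with exact conditional binomial intervals (Poisson for levels, Clopper-Pearson for shares), all at 95% and covering counting error only. A gene entered a ratio with 20 or more UMIs over both sums and a mean log-normalized value over 0.01. A gene was counted as past the fold at 3-fold, or at 2-fold as an alternative. Shares of cells were compared after thinning to 5000 UMIs, which left out 120 and 210 cells. Correlations used values scaled to 10000 UMIs per cell and log-transformed. A floor of 3 counts stood for 0. No replicate test was possible. The members, the list of 43 further hyaluronan genes and all other lists were chosen with earlier results of these data known. Named genes are all members, list genes over 2-fold between libraries (all cells) or over 3-fold between classes, and the most abundant gene of each role; list genes past 2-fold in a single class, *Gfpt1*, *Adamts1* and *Pgm3* were added after their values were seen. Alternatives changed the scaling (TMM factors from edgeR 4.0.16, median-of-ratios), depth, weight of cells, minimum of UMIs, fold, cut and rule of the classes, and left out cells of high UMIs, cycling cells or cells with adipocyte transcripts. The ratio code was tested on simulated data. Scripts ran under R 4.3.3 and Python 3.11.15 with scipy 1.17.1.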

Additional observations from a re-analysis of the deposited data

Results flagged for a closer look

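The ratio between the libraries had opposite signs in the 2 classes of cells for *Has1* and *Tnfaip6*, beyond counting error in each class. As log2 of the library labelled Bap1ΔMPC over the library labelled Bap1WT, *Has1* was at -0.15 in Dpp4-type cells and 0.71 in other cells, and *Tnfaip6* was at -0.43 and 0.06. With 1 sum per class and library, the difference between the classes was not tested. *Has1* in Dpp4-type cells was at 0.27 with cells split by a *Dpp4* UMI and at 0.02 in cells below the median of immediate early genes, and *Tnfaip6* in other cells was at -0.06 with TMM factors and -0.03 with median-of-ratios factors, so the opposite sign does not hold in these settings. *Has1* in other cells stayed between 0.60 and 1.23 over 14 alternatives.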

How the results depend on the processing

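No member passed 3-fold between the libraries, in all cells or either class, under any alternative run for these comparisons. The same does not hold at 2-fold. Over 14 alternatives the log2 ratio of *Has1* in other cells reached 1.23, and that of *Hyal1* in Dpp4-type cells reached -1.14. The number over 3-fold between Dpp4-type and other cells was 2 of 7 in the library labelled Bap1WT and became 1 (*Has1*) with cells thinned to 5000 UMIs, with Dpp4-type cells taken from 40 UMIs per 10000, and with classes by a *Dpp4* UMI, where *Has2* had log2 ratios of 1.57, 1.58 and 1.18. It became 3 with no minimum of UMIs or mean expression (*Hapln1* added). In the library labelled Bap1ΔMPC it was 1 (*Has2*) and became 2 at 2-fold (*Has1* added), 2 with no minimum (*Hapln1* added, on 2 UMIs in Dpp4-type cells of each library), and 0 with classes by a *Dpp4* UMI. The 2 alternatives chosen after seeing the data, cells below the median of immediate early genes and cells at 20 to 30 per 10000 left out, left both counts as they were. Between the classes, 1 of 98 recomputed ratios took the other sign in the library labelled Bap1ΔMPC (*Vcan*) and 0 of 98 in the library labelled Bap1WT. Between the libraries, 2 of 70 did over all cells (*Has2*, *Tnfaip6*), 8 of 98 in Dpp4-type cells (*Has1*, *Cd44*) and 6 of 98 in other cells (*Has2*, *Vcan*, *Tnfaip6*). Scaling by TMM factors shifted all log2 ratios between libraries by -0.10 over all cells. No paired analysis was possible because each group has 1 library. Depth limits *Has3* and *Hapln1*, with 45 UMIs or fewer in a library.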
